A study of Mus musculus with 14 samples.

Results

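Cell division genes were described in single cells of the mouse spinal cord. The set held 40 genes chosen by symbol, out of the 55335 genes counted, and was divided by textbook function into 17 genes of S phase and 23 genes of mitosis. All 40 symbols were found. The cords came from mice of postnatal age P115-120 in 14 libraries of 4 genotypes. The group called nTg (3 libraries) carried no transgene and had Clec7a intact. The group Clec7a-KO (4 libraries, strain B6.129S6-Clec7atm1Gdb/J) lacked Clec7a, which encodes the myeloid receptor Dectin-1. The group SOD1G93A (3 libraries, strain B6SJL-Tg(SOD1*G93A)1Gur/J) carried a mutant human SOD1 transgene and is a model of amyotrophic lateral sclerosis at a middle stage of disease. The group SOD1G93A/Clec7a-KO (4 libraries) carried the transgene and lacked Clec7a. The study asked how Clec7a shapes microglial immune responses in this disease model. Clec7a was lost in every cell that could express it, so no comparison here is limited to microglia, and the strain labels differ between the groups. A library is named here by its group and its replicate number.

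A cell that divides first copies its DNA in S phase and then separates the copies in mitosis. Replication origins are loaded with the Mcm helicase, the fork needs a sliding clamp and a supply of deoxynucleotides, and entry into mitosis is driven by Cdk1 with cyclins A and B. Microglia, the resident macrophages of the cord, divide slowly in healthy adults and are known to proliferate in SOD1 mutant mice, while oligodendrocyte precursors keep dividing through adult life.

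Of 108892 barcodes, 90018 cells were kept (2566 to 10312 per library, from libraries of 28819852 to 141204910 unique molecular identifiers, UMIs). Cell classes were rebuilt from marker genes and are all "X-like", which is left out of their names below. Of 27 clusters, 3 stayed unnamed (4730 cells) and enter no class: cluster 14, with neutrophil and macrophage genes, held 10 cells with the mitosis call defined below (1.47% of 678), cluster 17, with endothelial and mural genes, 5 (0.135% of 3705), and cluster 25 held 0 of 218. Neither the 40 genes nor a wider list of 123 cell division genes was used to form the clusters. Levels are counts per 1000000 UMIs (CPM). Clec7a itself was at 29.1 to 85.9 CPM in the microglia of nTg libraries and 884 to 1035 CPM in SOD1G93A. It was at 0.784 to 2.47 CPM in Clec7a-KO and 2.04 to 3.78 CPM in SOD1G93A/Clec7a-KO, low in every library labelled as lacking Clec7a. The transgene itself was not read. Cst7, which encodes a cystatin of the disease-associated microglial state, was at 10.9 to 22.7 CPM in nTg and 11.4 to 32 CPM in Clec7a-KO, against 696 to 1335 CPM in SOD1G93A and 982 to 1277 CPM in SOD1G93A/Clec7a-KO, with no overlap between groups with and without the transgene. The clusters that held most microglia differed between groups and between libraries of a group. Cluster 12, led by Tsix and Xist, which are transcribed from the X inactivation centre, and then by Crybb1, held 39.1% ± 31.8 (SD, n = 3; 2.48% to 57.8%) of the microglia in nTg and 15.5% ± 29.6 (n = 4; up to 59.9%) in Clec7a-KO, against means of 0.0188% and 0.348% in SOD1G93A and SOD1G93A/Clec7a-KO. Cluster 7, led by Crybb1, P2ry12 and Tmem119, held 26.4% ± 12.2 (SD, n = 3) of the microglia in nTg and 38.3% ± 19.4 (n = 4) in Clec7a-KO, against 11.4% ± 8.83 (n = 3) in SOD1G93A and 10.6% ± 4.28 (n = 4) in SOD1G93A/Clec7a-KO. Cluster 3, led by Dusp2, Ccl4 and Il1b, held 1.39% ± 0.595 (n = 3), 1.57% ± 0.779 (n = 4), 26.2% ± 2.93 (n = 3) and 28.5% ± 11.2 (n = 4) in the same order. No state or genotype difference is read from cluster 12, whose share ran from 0.352% to 59.9% within Clec7a-KO. Xist exceeded the Y-linked Ddx3y only in nTg replicates 1 and 3, Clec7a-KO replicate 3 and SOD1G93A/Clec7a-KO replicate 4. The part of sex in the share of cluster 12 was not tested. Cluster 3 held at most 2.24% of microglia in any library without the transgene and at least 16.1% with it. By cluster 3, values within microglia come from cells in different states. Of the 11 clusters named microglia, 2 were doubtful by the 10 genes highest by fold over all other cells. Cluster 6 (1130 cells) had Igkc, H2-Aa, the 2 B cell markers Cd79a and Ms4a1 and 0 microglial markers there, and it held 0.437% ± 0.308 (n = 3), 0.633% ± 0.408 (n = 4), 2.11% ± 0.252 (n = 3) and 3.5% ± 1.05 (n = 4) of the microglia in nTg, Clec7a-KO, SOD1G93A and SOD1G93A/Clec7a-KO. Cluster 10 (2458 cells) was led by haemoglobin genes with 0 microglial markers among the 10, had 0.316 of its libraries' median depth and held 10.0% ± 4.53, 7.08% ± 4.1, 3.68% ± 1.73 and 2.65% ± 0.706 in the same order. Each of the 12 microglial markers had UMIs in the sum over either cluster, which does not settle what these cells are. Both clusters stayed in the class. Results without both clusters, an alternative added after seeing the data, are given beside the counts below.

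Before the results, features of single libraries that touch them are given. The labels give no sex, and Xist exceeded the Y-linked Ddx3y in 2 of 3 nTg libraries, 1 of 4 Clec7a-KO, 0 of 3 SOD1G93A and 1 of 4 SOD1G93A/Clec7a-KO libraries, so sex differed between the groups compared. Doublet removal took every microglial cell of nTg replicate 1 that carried the mitosis call defined below in thinned counts: with the marked barcodes kept, that library had 15 such cells, and all 15 were marked as doublets, against 0 to 23 marked among the called microglia of each other library. After removal, 15 of its microglia (0.597%) carried the S phase call, and without thinning 0.473% carried the mitosis call. Its microglial Mki67 was 1.87 UMIs per 1000000 without and 24.3 with these barcodes, not scaled further, and Top2a was 1.27 and 21.8. Counts and shares with the marked barcodes kept are given beside the main ones below.

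Promoter sequences are shown for 4 members that rose together, with 2 from the S phase group and 2 from the mitosis group. They are RefSeq sequences on build GRCm38.p6, each read 5' to 3' on the strand of its gene, with motif matches in capitals. Those of Mcm5, Mcm3 and Ccnb2 end at the base before the RefSeq start. That of Cdk1 ends 26 bases earlier, because the GENCODE gene covers those bases. Gene positions are from GENCODE, whose starts differ from RefSeq's for some genes. Mcm5, a helicase subunit, lies at chr8:75109569-75128439 on the plus strand, and the sequence is chr8:75109359-75109508. Mcm3, another subunit, lies at chr1:20802968-20820312 on the minus strand, and the sequence is chr1:20820313-20820462. Cdk1, the kinase that drives mitotic entry, lies at chr10:69335146-69352938 on the minus strand, and the sequence is chr10:69352939-69353062. Ccnb2, a B-type cyclin partner of Cdk1, lies at chr9:70407692-70421547 on the minus strand, and the sequence is chr9:70421555-70421704.
Mcm5: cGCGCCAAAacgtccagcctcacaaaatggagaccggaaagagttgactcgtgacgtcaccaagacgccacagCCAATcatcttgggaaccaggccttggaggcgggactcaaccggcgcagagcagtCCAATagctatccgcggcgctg
Mcm3: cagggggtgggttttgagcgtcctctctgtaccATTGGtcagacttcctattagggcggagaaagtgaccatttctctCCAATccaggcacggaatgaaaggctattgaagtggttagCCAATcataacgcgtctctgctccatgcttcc
Cdk1: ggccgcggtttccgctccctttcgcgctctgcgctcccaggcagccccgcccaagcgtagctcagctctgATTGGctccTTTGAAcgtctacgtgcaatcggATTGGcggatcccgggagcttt
Ccnb2: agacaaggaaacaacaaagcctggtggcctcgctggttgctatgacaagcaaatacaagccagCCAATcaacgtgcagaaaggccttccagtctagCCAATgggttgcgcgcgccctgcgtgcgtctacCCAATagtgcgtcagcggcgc
The motifs searched on both strands were CCAAT, the cell cycle homology region (CHR, letters TTTGAA or TTCGAA) and an E2F motif (letters TTTCCCGC, TTTGGCGC or TTCCCGCC). Distances run from the first printed base of a match to the RefSeq start. In capitals, Ccnb2 has 3 CCAAT matches at 87, 54 and 21 bases before the start, and Cdk1 has a CHR match at 71 bases and CCAAT matches at 80 and 48 bases. Mcm5 has an E2F match at 149 bases and CCAAT matches at 77 and 22 bases, and Mcm3 has CCAAT matches at 117, 72 and 32 bases.

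Among the 34 members with a promoter in the RefSeq table, read over the 250 bases before the start, CCAAT was present in 18 of 20 mitosis genes and 10 of 14 S phase genes, against 33.9% of all 32851 promoters. The CHR letters were present in 9 of 20 mitosis genes and 2 of 14 S phase genes, against 17.1% of all promoters. An E2F match was present in 6 of 14 S phase genes and 0 of 20 mitosis genes, against 2.69% of all promoters. These matches describe letters in a window and were not tested for function. Matches of the motifs can overlap each other by their letters.

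In microglia, cell division genes were higher with the transgene whether or not Clec7a was present. UMIs were summed over the microglia of a library, scaled with TMM factors and tested across libraries with edgeR's quasi-likelihood test, and a gene is called changed at a Benjamini-Hochberg adjusted p under 0.05 over all 16626 genes tested. In SOD1G93A against nTg, 25 of the 40 members were called higher and 0 lower, where 19.5% of all genes were called higher and 13.2% lower. In SOD1G93A/Clec7a-KO against Clec7a-KO, 28 of 40 were called higher and 0 lower, where 25.7% of all genes were called higher and 21.1% lower. The median log2 fold change of the members was 1.48 in the first comparison and 1.5 in the second, while the medians of all genes were 0.01 and 0.00. All 40 fitted fold changes were positive in both comparisons. With the marked doublets kept, 27 and 37 members were called, where 19.4% and 25.8% of all genes were called higher and 13.1% and 21.1% lower, and the members' medians were 1.04 and 1.44. Without clusters 6 and 10, 25 and 30 members were called, where 20.1% and 26.2% of all genes were called higher and 13.3% and 21.4% lower, with medians of 1.52 and 1.53. With the sex read from Xist and Ddx3y as a covariate, 21 and 26 were called, where 13.7% and 25% of all genes were called higher and 8.49% and 20.5% lower, and the calls of Aurkb in both comparisons, Top2a in the first (adjusted p = 0.112) and Ccna2 in the second (adjusted p = 0.0525) were lost. A higher class sum cannot tell more dividing cells from more RNA in each such cell. The labels do not say that each library is a separate animal, so p-values measure the spread between libraries.

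Most genes of the helicase and its loading rose. Of 9 members (Mcm2 to Mcm7, the loaders Cdc6 and Cdt1, and the GINS subunit Gins2), 8 were called higher in both transgene comparisons, and Cdc6 was not. Mcm5 stood at 4.77, 4.21 and 7.58 CPM in nTg and at 17.7, 14.4 and 14.6 CPM in SOD1G93A. It stood at 4.67, 5.07, 4.8 and 9.03 CPM in Clec7a-KO and at 16.5, 21.8, 22.4 and 18 CPM in SOD1G93A/Clec7a-KO. Every transgenic library was above every library without the transgene, and Clec7a-KO replicate 4 was the highest of the latter. The log2 fold change of Mcm5 was 1.51 ± 0.26 (SE, derived here from the test statistic; adjusted p = 6.1e-04) in SOD1G93A against nTg and 1.76 ± 0.23 (adjusted p = 3.21e-05) in SOD1G93A/Clec7a-KO against Clec7a-KO. Mcm6 stood at 6.31, 6.26 and 8.35 CPM in nTg against 22.4, 20.9 and 21.5 CPM in SOD1G93A, and at 6.71, 7.85, 6.23 and 13.3 CPM in Clec7a-KO against 22.5, 25.1, 36.5 and 30.0 CPM in SOD1G93A/Clec7a-KO. Its fold changes were 1.64 ± 0.26 (adjusted p = 2.76e-04) and 1.76 ± 0.22 (adjusted p = 2.5e-05), and the groups with and without the transgene did not overlap.

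Mcm3 also rose. Its levels were 25.6, 30.1 and 34.8 CPM in nTg and 69.4, 54.4 and 50.6 CPM in SOD1G93A. They were 32.9, 31.9, 31.1 and 42.2 CPM in Clec7a-KO and 58.9, 77.2, 62.6 and 57.8 CPM in SOD1G93A/Clec7a-KO. The groups did not overlap, and the fold changes were 0.95 ± 0.17 (adjusted p = 8.95e-04) and 0.9 ± 0.15 (adjusted p = 2.63e-04). Gins2, which joins the helicase when origins fire, rose by 1.3 ± 0.22 (adjusted p = 4.81e-04) and 1.94 ± 0.19 (adjusted p = 3.34e-06).

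Of the 6 genes of the fork, nucleotide supply and chromatin copying, 4 were called higher in both comparisons (Rrm1, Tyms, Pclaf and Uhrf1). Pcna, the sliding clamp, was not: it stood at 79.7, 93.9 and 88.3 CPM in nTg and 86, 145 and 129 CPM in SOD1G93A, and at 73.6, 108, 93.6 and 55.5 CPM in Clec7a-KO and 112, 74.8, 113 and 106 CPM in SOD1G93A/Clec7a-KO. The groups overlapped in both comparisons, and the fold changes were 0.46 ± 0.24 (adjusted p = 0.161) and 0.29 ± 0.21 (adjusted p = 0.268). Rrm1, the large subunit of ribonucleotide reductase, stood at 8.84, 9.72 and 13.4 CPM in nTg and 18.9, 21.7 and 20.0 CPM in SOD1G93A, and its libraries did not overlap. In Clec7a-KO it was at 11.7, 11.4, 11.2 and 13.9 CPM, all below the 21.7, 18.4, 22.3 and 17.8 CPM of SOD1G93A/Clec7a-KO.

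Rrm1 rose by 0.93 ± 0.17 (adjusted p = 7.12e-04) and 0.74 ± 0.14 (adjusted p = 7.9e-04). Tyms, thymidylate synthase, stood at 5.13, 7.71 and 7.12 CPM in nTg and 13.7, 16.4 and 13.5 CPM in SOD1G93A, and at 6.71, 7.08, 6.48 and 10.6 CPM in Clec7a-KO and 16, 15.6, 19.8 and 14.4 CPM in SOD1G93A/Clec7a-KO. Its groups did not overlap, with fold changes of 1.13 ± 0.21 (adjusted p = 9.71e-04) and 1.1 ± 0.18 (adjusted p = 2.27e-04). Pclaf, a PCNA-binding factor, had the highest fitted fold change of all members in SOD1G93A against nTg (2.82 ± 0.54, adjusted p = 0.00129). Before TMM scaling, its nTg libraries were at 0.636, 2.87 and 5.44 CPM, in order of replicate. With the marked doublets kept they were at 5.33, 2.88 and 5.51 CPM. The first of these libraries lost all its microglia with the mitosis call in thinned counts to doublet removal. The fold change and rank of Pclaf with the marked doublets kept are not given. Uhrf1, which keeps DNA methylation through replication, rose by 2.04 ± 0.3 (adjusted p = 1.63e-04) and 1.64 ± 0.25 (adjusted p = 1.27e-04). Rrm2, the small subunit of ribonucleotide reductase, did not pass in either comparison (1.36 ± 0.81, adjusted p = 0.209, and 1.5 ± 0.69, adjusted p = 0.0864).

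**Figure D1:**
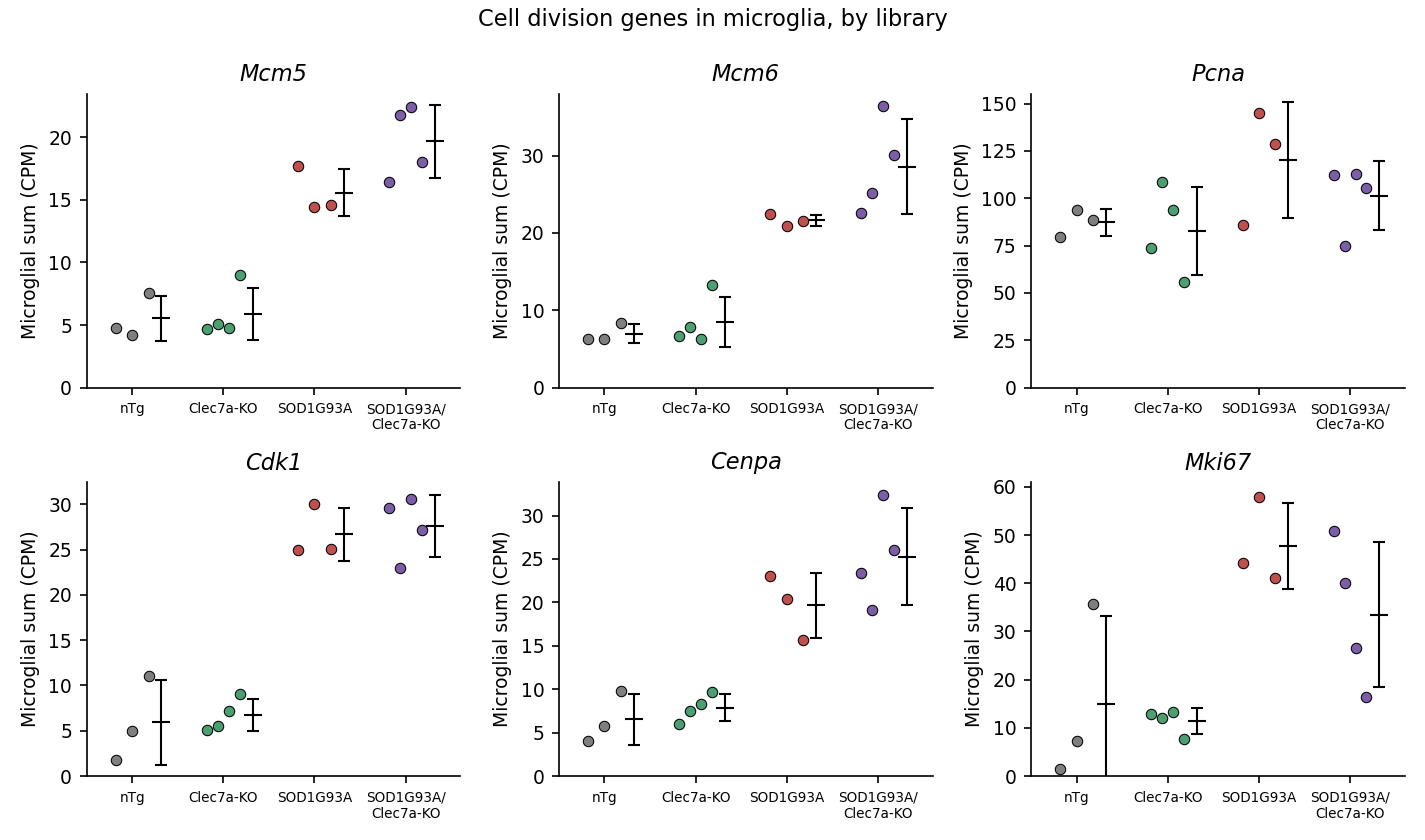
CPM in the microglial sum of each library (points) for 6 members, by genotype, with the group mean ± SD beside them (SD bars are drawn only above 0). Mcm5, Mcm6, Cdk1 and Cenpa are higher in every transgenic library than in any other, while Pcna overlaps between all groups and Mki67 reaches 35.8 CPM in 1 nTg library.

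Of the 7 genes that encode cyclins, Cdk1 and the Cdk phosphatase Cdkn3, 5 were called higher in SOD1G93A against nTg and 6 in SOD1G93A/Clec7a-KO against Clec7a-KO. Cdk1 stood at 1.75, 5.01 and 11 CPM in nTg and 25, 30.0 and 25 CPM in SOD1G93A. It stood at 5.14, 5.56, 7.17 and 9.03 CPM in Clec7a-KO and 29.6, 23, 30.6 and 27.2 CPM in SOD1G93A/Clec7a-KO. The groups did not overlap, although nTg spread widely, and Cdk1 rose by 2.23 ± 0.43 (adjusted p = 0.00134) and 2.05 ± 0.37 (adjusted p = 4.52e-04). Ccnb2 stood at 0.634, 2.25 and 4.9 CPM in nTg against 10.8, 10.9 and 7.75 CPM in SOD1G93A, and at 2.53, 3.75, 5.17 and 6.53 CPM in Clec7a-KO against 10.8, 9.01, 18.8 and 15 CPM in SOD1G93A/Clec7a-KO. The groups did not overlap, with fold changes of 2.02 ± 0.52 (adjusted p = 0.00905) and 1.6 ± 0.43 (adjusted p = 0.00771).

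Ccna2, cyclin A2, stood at 0.241, 1.8 and 5.82 CPM in nTg and 6.22, 7.15 and 5.37 CPM in SOD1G93A, so nTg replicate 3 lay above a transgenic library. In the groups without Clec7a it stood at 1.97, 2.26, 2.49 and 6.6 CPM and, with the transgene, at 7.29, 5.34, 15 and 12.1 CPM, again with an overlap. Its fold change did not pass in the first comparison (1.37 ± 0.72, adjusted p = 0.157; 3 of 26 alternative settings gave a call) and passed in the second (1.62 ± 0.61, adjusted p = 0.0412), a call that 11 of 26 alternative settings ended. Of the cyclins of S phase entry, Ccne1 rose by 1.96 ± 0.47 (adjusted p = 0.00604) and 1.52 ± 0.38 (adjusted p = 0.00513), while Ccne2 did not pass (adjusted p = 0.247 and 0.189). The difference between these genes was not tested.

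Of the 6 mitotic kinases, checkpoint proteins and members of the chromosomal passenger complex, 4 were called higher in SOD1G93A against nTg and 6 in SOD1G93A/Clec7a-KO against Clec7a-KO. Birc5 (survivin, of the passenger complex) stood at 0.483, 3.16 and 9.19 CPM in nTg and 20.8, 19.9 and 14 CPM in SOD1G93A, and at 4.18, 5.35, 5.17 and 5.84 CPM in Clec7a-KO and 20.0, 18.4, 25.6 and 15.5 CPM in SOD1G93A/Clec7a-KO. Its groups did not overlap, and it rose by 2.19 ± 0.59 (adjusted p = 0.0112, and 0.0506 without nTg replicate 2) and 1.96 ± 0.5 (adjusted p = 0.0052). Bub1b, of the spindle checkpoint, stood at 0.604, 0.852 and 3.75 CPM in nTg and 6.34, 6.77 and 5.52 CPM in SOD1G93A, and at 1.45, 2.05, 2.56 and 2.5 CPM in Clec7a-KO and 7.52, 6.2, 5.4 and 4.53 CPM in SOD1G93A/Clec7a-KO. The groups did not overlap, and it rose by 1.96 ± 0.48 (adjusted p = 0.00679) and 1.5 ± 0.41 (adjusted p = 0.00777).

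Aurkb, the kinase of the passenger complex, stood at 0.272, 1.4 and 3.14 CPM in nTg and 4.59, 5.14 and 5.4 CPM in SOD1G93A, and at 1.63, 2.08, 2.56 and 4.93 CPM in Clec7a-KO and 6.27, 4.18, 8.7 and 6.59 CPM in SOD1G93A/Clec7a-KO. The groups without Clec7a overlapped. Its calls (1.78 ± 0.58, adjusted p = 0.0295, and 1.24 ± 0.48, adjusted p = 0.0443) were ended by 5 and 12 of 26 alternative settings.

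Of the 2 genes of the anaphase promoting complex, its ubiquitin-conjugating enzyme Ube2c was called in SOD1G93A/Clec7a-KO against Clec7a-KO and not in SOD1G93A against nTg, and its activator Cdc20 in neither comparison. Ube2c stood at 0.241, 5.76 and 17.2 CPM in nTg and 24.2, 23.4 and 18.8 CPM in SOD1G93A, with no overlap (1.58 ± 0.75, adjusted p = 0.12; 5 of 26 alternative settings gave a call). It stood at 5.89, 5.9, 7.6 and 13.9 CPM in Clec7a-KO and 27.1, 21.4, 39.3 and 29.1 CPM in SOD1G93A/Clec7a-KO, also with no overlap (1.83 ± 0.65, adjusted p = 0.0312, a call that 4 of 26 alternative settings ended). Cdc20 stood at 0.573, 2.71 and 5.97 CPM in nTg and 8.84, 6.58 and 5.57 CPM in SOD1G93A, and at 3.66, 2.4, 5.42 and 3.41 CPM in Clec7a-KO and 7.29, 8.5, 9.69 and 5.21 CPM in SOD1G93A/Clec7a-KO, with an overlap in both comparisons, and 3 and 7 of 26 alternative settings gave a call. The nTg libraries of these genes spread widely.

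Of 5 spindle genes, only Tpx2, the activator of the Aurora A kinase, was called, and it was called in both comparisons. It stood at 0.362, 2.25 and 6.36 CPM in nTg and 11.2, 12.1 and 11.4 CPM in SOD1G93A, and at 2.99, 3.19, 4.18 and 5.24 CPM in Clec7a-KO and 12.6, 11, 13.2 and 9.11 CPM in SOD1G93A/Clec7a-KO. It rose by 2.06 ± 0.57 (adjusted p = 0.0129, and 0.0552 without nTg replicate 2) and 1.58 ± 0.48 (adjusted p = 0.0142). Nusap1, a microtubule binder, stood at 0.272, 2.15 and 6.74 CPM in nTg and 7.17, 8.18 and 7.82 CPM in SOD1G93A, and at 3.4, 3.3, 5.11 and 4.4 CPM in Clec7a-KO and 8.35, 7.98, 10.4 and 8.19 CPM in SOD1G93A/Clec7a-KO. Its libraries did not overlap, yet neither test passed (1.44 ± 0.6, adjusted p = 0.0799, and 1.12 ± 0.51, adjusted p = 0.0818), while 4 and 7 of 26 alternative settings gave a call. Kif11, the motor that pushes spindle poles apart, stood at 2.2, 2.66 and 7.35 CPM in nTg and 7.51, 9 and 7.56 CPM in SOD1G93A, with no overlap. It stood at 2.67, 3.12, 5.24 and 5.08 CPM in Clec7a-KO and 9.61, 6.59, 6.89 and 4.81 CPM in SOD1G93A/Clec7a-KO, with an overlap, and did not pass either (1.03 ± 0.4, adjusted p = 0.0593, and 0.83 ± 0.34, adjusted p = 0.0596), while 5 and 9 of 26 alternative settings gave a call.

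Of 5 genes of the centromere and of chromosome structure, 3 were called in SOD1G93A against nTg and 2 in SOD1G93A/Clec7a-KO against Clec7a-KO. Cenpa, the centromeric histone, stood at 4.07, 5.76 and 9.8 CPM in nTg and 23, 20.4 and 15.7 CPM in SOD1G93A, and at 5.98, 7.53, 8.29 and 9.71 CPM in Clec7a-KO and 23.4, 19.2, 32.4 and 26.1 CPM in SOD1G93A/Clec7a-KO. Its groups did not overlap, and it rose by 1.62 ± 0.29 (adjusted p = 7.62e-04) and 1.69 ± 0.25 (adjusted p = 9.27e-05). Mki67, the marker of cycling cells, stood at 1.51, 7.26 and 35.8 CPM in nTg and 44.2, 57.9 and 41 CPM in SOD1G93A, and at 13, 11.9, 13.2 and 7.59 CPM in Clec7a-KO and 50.9, 39.9, 26.7 and 16.5 CPM in SOD1G93A/Clec7a-KO. The groups of neither comparison overlapped, but nTg replicate 3 lay close to SOD1G93A, and neither test passed (1.73 ± 0.71, adjusted p = 0.0762, and 1.55 ± 0.61, adjusted p = 0.0503). A call was given by 3 of 26 alternative settings in the first comparison and by 10 in the second, among them the one without clusters 6 and 10 (adjusted p = 0.0463).

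Top2a, which untangles DNA before chromosomes separate, stood at 1.03, 9.47 and 25.6 CPM in nTg and 39.1, 43.5 and 34.8 CPM in SOD1G93A, and at 13.5, 12.3, 15.6 and 16.2 CPM in Clec7a-KO and 44.9, 40.6, 30.8 and 27.5 CPM in SOD1G93A/Clec7a-KO. It passed in the first comparison (1.75 ± 0.63, adjusted p = 0.0448, a call that 14 of 26 alternative settings ended) and not in the second (1.33 ± 0.53, adjusted p = 0.0533), where 9 of 26 alternative settings gave a call, among them the one without clusters 6 and 10 (adjusted p = 0.0489).

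**Figure D2:**
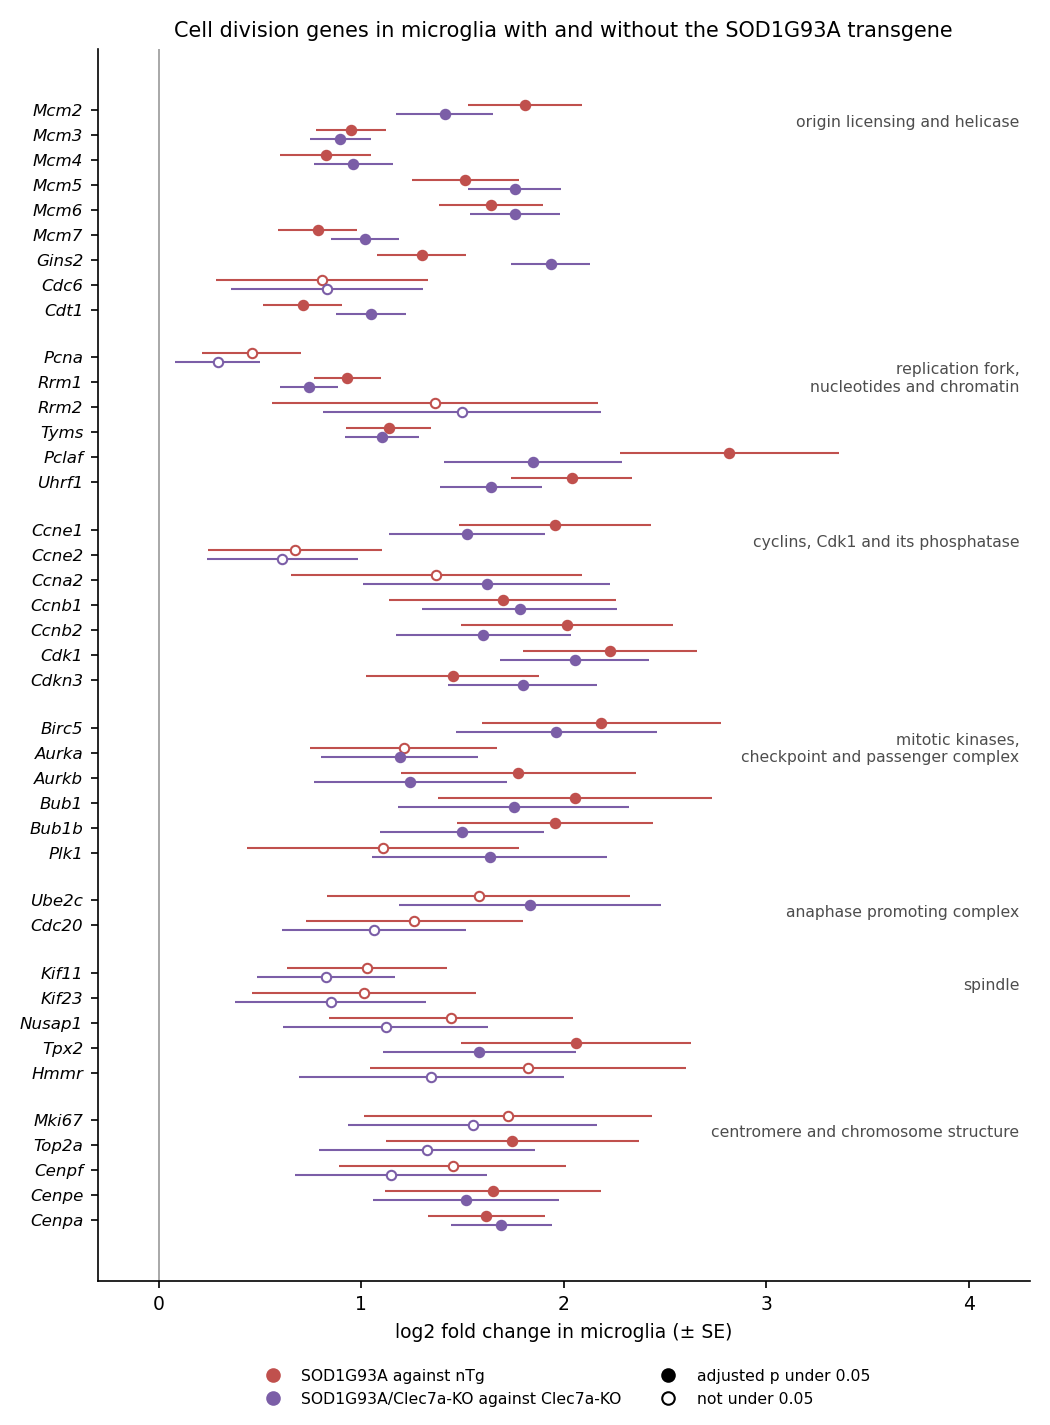
Log2 fold changes ± SE of the 40 members in microglia for both transgene comparisons, grouped by role, with filled points where the adjusted p was under 0.05. All points lie above 0, and of the 5 spindle genes 1 is filled in each comparison.

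All libraries of SOD1G93A lay above all of nTg for 33 of 40 members, where this held for 29.2% of all genes. All libraries of SOD1G93A/Clec7a-KO lay above all of Clec7a-KO for 32 of 40, where it held for 21.4%. The count called in SOD1G93A against nTg rested on the nTg libraries, since it was 15 without nTg replicate 2 and 37 without nTg replicate 3, the highest nTg library for Mki67, Top2a and Cdk1. Without nTg replicate 3 the members' median moved from 1.48 to 2.31. Over all alternative settings, 9 of the 13 named members called in this comparison and 11 of the 14 called in SOD1G93A/Clec7a-KO against Clec7a-KO kept their call.

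No member was called in microglia with the loss of Clec7a. Between SOD1G93A/Clec7a-KO and SOD1G93A, edgeR called 0 of 40 members, 0 had an unadjusted p under 0.05, DESeq2 called 0, and 0.00601% of all genes were called higher and 0.012% lower. The members' median log2 fold change was 0.14, from -0.5 (Mki67) to 0.66 (Ccna2), beside a median of 0.02 over all genes. All libraries without Clec7a lay above the others for 3 of 40 members, where it held for 4.32% of all genes. In Clec7a-KO against nTg, edgeR called 0 of 40 (DESeq2 0), 2 had an unadjusted p under 0.05 (Mcm2 and Gins2, in opposite directions), and 0.00601% of all genes were called higher and 0.0241% lower. The difference between both transgene effects, tested as an interaction, called 0 of 40 (0.0% of all genes in either direction; DESeq2 0), with a median of -0.17 (0.25 with marked doublets kept) and 1 member, Gins2, at an unadjusted p under 0.05. The errors leave room for moderate differences: between the transgenic groups the SE was 0.16 for Mcm3, 0.37 for Cdk1 and 0.63 for Mki67. Both Clec7a comparisons share libraries with the transgene comparisons and are not independent of them.

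Counted by cell, microglia that carried division genes were more frequent with the transgene. Each cell was thinned to 2000 UMIs, shallower cells were left out, and a cell carried the mitosis call where at least 3 of the 23 mitosis members had a UMI, and the S phase call likewise for the 17 S phase members. Microglia with the mitosis call made up 0%, 0.342% and 1.43% in nTg and 0.496%, 0.63%, 0.612% and 0.772% in Clec7a-KO. They made up 2.31%, 3.17% and 2.26% in SOD1G93A and 3%, 2.35%, 2.89% and 2.03% in SOD1G93A/Clec7a-KO. No transgenic library overlapped with the others, and the shares of both transgenic groups overlapped each other.

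The means were 0.591% ± 0.748 (SD, n = 3) in nTg, 0.627% ± 0.113 (n = 4) in Clec7a-KO, 2.58% ± 0.512 (n = 3) in SOD1G93A and 2.57% ± 0.457 (n = 4) in SOD1G93A/Clec7a-KO, and the nTg mean was 0.171% without its replicate 3. With the marked doublets kept, the share of nTg replicate 1 was 0.604% in place of 0%, the nTg libraries ran from 0.344% to 1.45%, and the lowest transgenic library was at 2.01%. The S phase call was found in 0.597%, 0.586% and 1.53% of microglia in nTg and 0.827%, 1.07%, 0.535% and 1.27% in Clec7a-KO, against 3.09%, 3.13% and 2.86% in SOD1G93A and 2.99%, 2.96%, 3.16% and 2.67% in SOD1G93A/Clec7a-KO. No p is given for these shares, since they are scores over the chosen members.

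Over all libraries, 1015 of 50456 microglia carried the mitosis call (2.01%, exact 95% binomial interval 1.89% to 2.14%, counting error only), 1205 the S phase call and 437 both. Neurons, which do not divide, carried it in 0 of 865 cells, which allows a share of up to 0.347%. The median depth of the neurons was 2304 to 5908 UMIs per library and that of the microglia 5294 to 21868 UMIs. Cluster 6 held 3 of the 1015 called cells (0.269% of its 1114 thinned cells) and cluster 10 held 13 (0.799% of 1628). Without both clusters the group means were 0.625% in nTg, 0.659% in Clec7a-KO, 2.66% in SOD1G93A and 2.69% in SOD1G93A/Clec7a-KO, and 2.09% over all libraries. Near the threshold, 241 microglia had 2 mitosis members and 106 had exactly 3. Without thinning, the means were 0.843% in nTg, 0.819% in Clec7a-KO, 6.11% in SOD1G93A and 4.73% in SOD1G93A/Clec7a-KO.

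**Figure D3:**
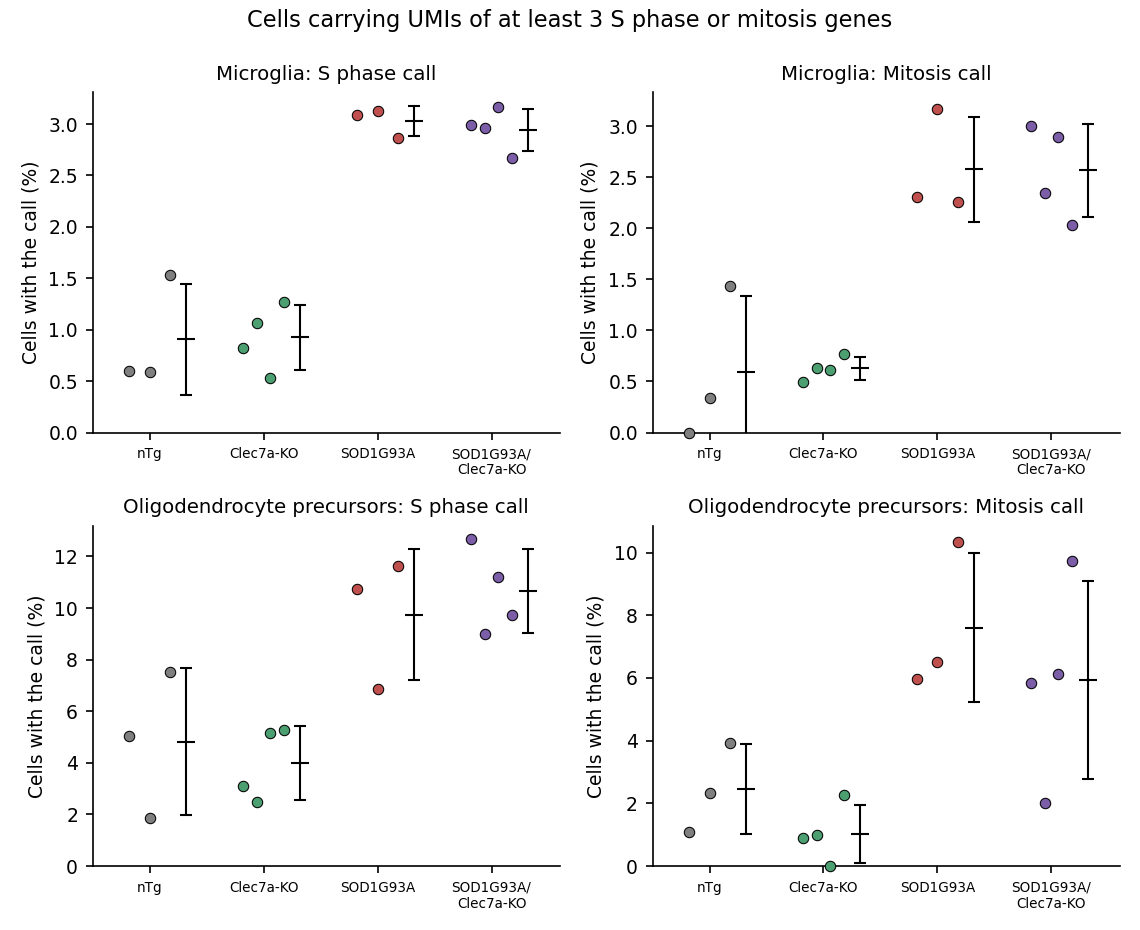
Percent of cells with the S phase call (left) and the mitosis call (right) in microglia (top) and oligodendrocyte precursors (bottom), 1 point per library after thinning to 2000 UMIs, with the group mean ± SD (SD bars are drawn only above 0). Microglial shares of the transgenic groups lie between 2.03% and 3.17% and do not overlap with the others, while precursor shares spread more within the transgenic groups.

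Although neither the members nor the wider list was used to form clusters, 1 microglial cluster (cluster 4) had Mki67, Top2a and Birc5 as its leading genes. Other genes of division were not removed, and Hist1h1b and Pbk were also among its 10 leading genes. It held 831 of the 1015 microglia with the mitosis call, 77.4% of its own thinned cells. Its share of microglia was 0.706% ± 0.67 (n = 3) in nTg and 0.604% ± 0.18 (n = 4) in Clec7a-KO, against 2.64% ± 0.33 (n = 3) in SOD1G93A and 2.79% ± 0.663 (n = 4) in SOD1G93A/Clec7a-KO, given as a description.

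The members differed in how far their UMIs came from dividing cells. For each member, microglia of the 7 transgenic libraries were split by the mitosis call (938 cells), from which a mitosis member was itself left out, and the member's level was read in called and other cells. S phase members were thus also read in cells called by mitosis members. Mitosis members were 29.6 to 594 times higher in called cells (median 161), and these cells held 53.4% to 96.1% of their UMIs (median 86.4%). Since the call selects cells by the other mitosis members, these values are a description and support nothing. The highest ratio, that of Hmmr, was over a level near 0 (0.302 CPM in other cells). The receptor Hmmr, which binds spindle microtubules, was the most restricted of them, with 96.1% of its UMIs in called cells, and Cdk1 the least, with 53.4%. S phase members were 2.19 to 136 times higher (median 8.36), with 8.25% to 84.2% of their UMIs in called cells (median 25%).

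Within S phase the spread was wide. Cdt1 and Mcm3 had 8.25% and 11.3% of their UMIs in called cells, and Mcm3 was at 152 against 48 CPM in other microglia. Rrm2 and Pclaf, with 84.2% and 81.8%, lay in the range of the mitosis genes, at 132 against 0.976 CPM and 303 against 2.63 CPM. The mitosis call marks late stages, so cells in S phase alone count among the others.

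**Figure D4:**
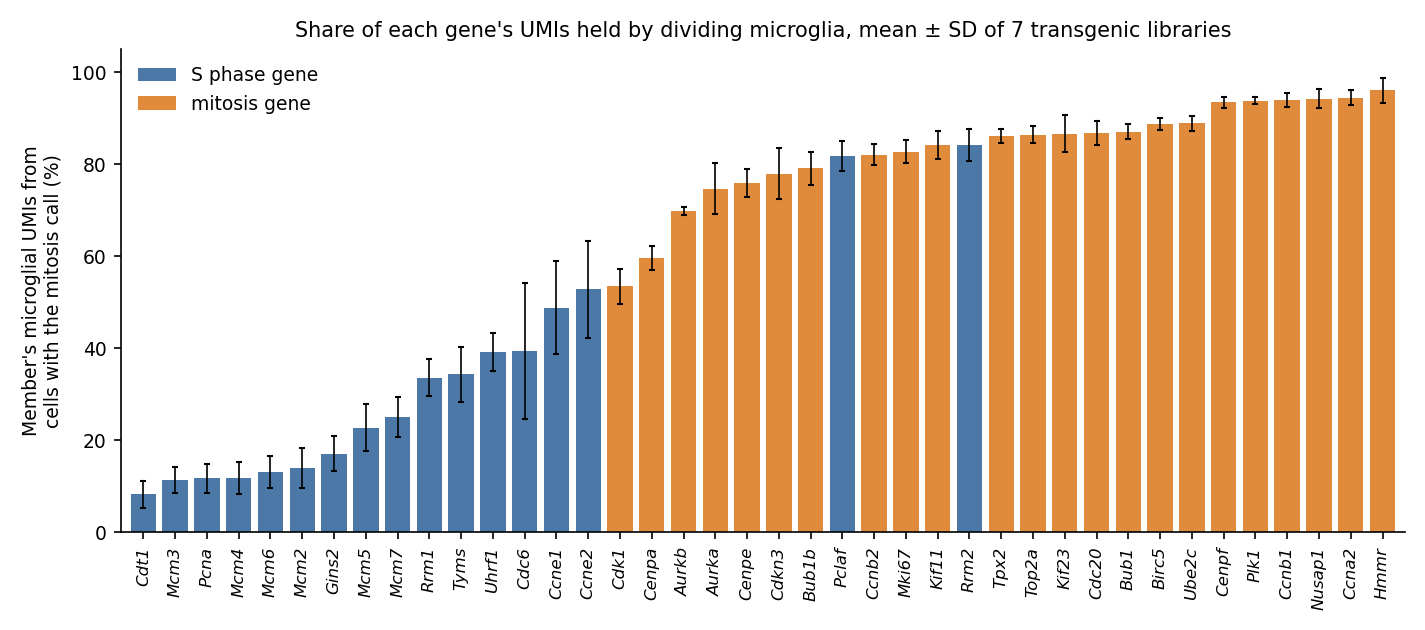
Percent of each member's microglial UMIs that came from cells with the mitosis call, with a mitosis member left out of its own call, as mean (bars) ± SD over 7 transgenic libraries, in rising order. S phase genes (blue) run from 8.25% to 84.2% and mitosis genes (orange) from 53.4% to 96.1%.

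Levels were also read outside the called cells. In microglia with neither call, the mitosis members together came to 16.5 to 23 CPM in nTg and 12.9 to 25.8 CPM in Clec7a-KO. They came to 40.6 to 44 CPM in SOD1G93A and 33.9 to 47 CPM in SOD1G93A/Clec7a-KO, with no overlap between groups with and without the transgene. The S phase members together were at 199 to 203 CPM in nTg, 164 to 214 CPM in Clec7a-KO, 206 to 218 CPM in SOD1G93A and 187 to 214 CPM in SOD1G93A/Clec7a-KO, which overlapped. Much of this sum was Pcna, at 98.9 to 109 CPM in nTg, 53.8 to 123 CPM in Clec7a-KO, 67.8 to 102 CPM in SOD1G93A and 51.3 to 82.5 CPM in SOD1G93A/Clec7a-KO. A sum without Pcna was formed after these values were seen. In it the S phase members came to 89.6 to 102 CPM in nTg and 91 to 110 CPM in Clec7a-KO. In SOD1G93A they came to 112 to 138 CPM and in SOD1G93A/Clec7a-KO to 122 to 140 CPM. The member left out was picked by its values, and Clec7a-KO replicate 4 (110.21 CPM) lay close to SOD1G93A replicate 2 (111.65 CPM). This sum is therefore a description and supports no difference. Mcm6 was at 6.07 to 7.22 CPM in nTg and 6.1 to 11.6 CPM in Clec7a-KO, against 12.2 to 14.4 CPM and 13.2 to 20.8 CPM in the transgenic groups, and Mcm5 and Cenpa also did not overlap. Mcm3, Tyms and Rrm1 overlapped between groups with and without the transgene. Uncalled cells can include dividing cells whose member UMIs were not sampled, and their part in this was not tested.

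Dividing microglia of the transgenic libraries also differed from their neighbours outside the cell cycle. Called and other microglia were compared within each of the 7 libraries with edgeR (12847 genes, 938 called cells), and 26.3% of genes were called higher and 29.6% lower. Since the call uses the members, cell division genes are description here: 110 of the 123 genes of the wider list were higher and 5 lower, with a median log2 fold change of 2.84 against -0.04 over all genes. Of 24 disease-associated microglial genes, 23 were called lower and 0 higher (median -0.45). Lyz2, which encodes lysozyme, was at 1727 ± 403 CPM (SD, n = 7) in dividing and 5093 ± 672 CPM in other microglia, a log2 difference of -1.58, and lower in all 7 libraries. Itgax, which encodes CD11c, was at 97.9 ± 37.8 against 216 ± 40.4 CPM (-1.14), again lower in all 7.

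The lipoprotein gene Apoe (-1.22) and the galectin Lgals3 (-1.06) were lower in all 7 libraries too. Of 13 homeostatic genes, 4 were called higher and 5 lower (median -0.04), with Tmem119 at 277 ± 54.9 against 203 ± 37.6 CPM (0.45) and Selplg at 770.4 ± 150.3 against 548 ± 80.2 CPM (0.48), both higher in all 7 libraries. Gpr34 (-0.36) and the growth factor receptor Csf1r (-0.23) were lower in all 7. All 12 dissociation stress genes were called lower (median -0.51), led by the heat shock genes Hspa1b (-1.98) and Hspa1a (-1.43).

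Of 10 inflammatory genes, 2 were called higher and 7 lower (median -0.31): the chemokine Cxcl10 was higher by 1.25, while Olr1 (-1.44), Ptgs2 (-0.98) and Il1b (-0.72) were lower. Of 10 interferon response genes, 7 were called lower and 0 higher (median -0.5), among them Ifit1 (-1.19) and Rsad2 (-0.87), each lower in 6 of 7 libraries. Among called genes outside both cell division lists with a mean of at least 20 CPM, the 5 highest by fold were the linker histone Hist1h1b, Pimreg, the mitotic kinases Nek2 and Pbk and the cohesion factor Esco2. They were at means of 48.3 to 186 CPM in called and 0.147 to 0.734 CPM in other microglia, so they passed the limit of 20 CPM through the called cells, and they include genes of division, which the call selects. Their levels are therefore a description, with no fold given. The lowest by fold were the haemoglobin gene Hbb-bs (1.16 ± 1.49 against 42.9 ± 56.2 CPM, SD, n = 7, lower in 6 of 7 libraries), Slfn5, Hspa1b, the growth factor Vegfa and Lyz2. Slfn5 was at a mean of 12.7 CPM in called and 58.9 CPM in other microglia, Hspa1b at 8.81 and 32.6 CPM, and Vegfa at 14.2 and 42.6 CPM. Apart from Lyz2, these genes passed the limit of 20 CPM through the other microglia, so their levels too are a description. The value of Hbb-bs rested on 3 libraries, where other microglia were at 116, 123 and 57.3 CPM, while the other 4 were at 0.097 to 1.86 CPM. The called cells were deeper, with a median of 18013 UMIs against 10320 UMIs in the other microglia of all libraries, and the part of depth in these differences was not tested.

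The wider list of 123 genes, which held regulators and other machinery of division, was described in the same way in microglia. In SOD1G93A against nTg, 68 were called higher and 3 lower (median log2 fold change 0.92), where 19.5% of all genes were called higher and 13.2% lower. In SOD1G93A/Clec7a-KO against Clec7a-KO, 71 were called higher and 6 lower (median 0.89), where 25.7% of all genes were called higher and 21.1% lower. In SOD1G93A/Clec7a-KO against SOD1G93A and in Clec7a-KO against nTg, edgeR called 0, and 7 and 6 had an unadjusted p under 0.05. Of the 27 origin and fork genes, 15 and 19 were called higher in the transgene comparisons, and of the 15 kinetochore and checkpoint genes 12 and 12. All 4 genes of nucleotide supply rose in both. The transcription factor E2f1, which activates S phase genes, was at 2.29 ± 0.806 CPM (SD, n = 3) in nTg and 13.1 ± 2.67 CPM (n = 3) in SOD1G93A, a rise of 2.55 ± 0.29 (SE; adjusted p = 1.8e-05), and its rise in SOD1G93A/Clec7a-KO against Clec7a-KO was 2.83 ± 0.25 (adjusted p = 9.92e-07). Lmnb1, a nuclear lamin, rose from 16.3 ± 2.94 to 98.6 ± 18.5 CPM (2.6 ± 0.23, adjusted p = 2.07e-06). In the 7 transgenic libraries, scaled in a separate fit, microglia without the mitosis call were at 13.1 CPM for E2f1 and 83.8 CPM for Lmnb1. Those with the call were at 34.9 and 207 CPM. The part of dividing cells in these rises was not tested.

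Of the 13 inhibitors of cyclin-dependent kinases and of the cell cycle in the list, 8 were called higher and 1 lower in SOD1G93A against nTg (median log2 fold change 0.63), and 8 higher and 2 lower in SOD1G93A/Clec7a-KO against Clec7a-KO (median 0.51). Of all genes, 19.5% and 25.7% were called higher and 13.2% and 21.1% lower. Some inhibitors were themselves higher in microglia with the mitosis call than in other microglia of the 7 transgenic libraries. Examples were Cdkn2c (133 against 8.12 CPM) and Cdkn2a (36.3 against 6.26 CPM). Cdkn1b, Cdkn1c, Cdkn2b and Ccng2 were not called there, and Btg1 and Btg2 were lower. The part of dividing cells in the changes of inhibitors with the transgene was not tested. Cdkn2a, whose locus encodes p16 and p19Arf and whose transcripts these counts do not separate, rose from 0.576 ± 0.365 CPM (SD, n = 3) in nTg to 8.37 ± 1.51 CPM (n = 3) in SOD1G93A (4 ± 0.44, SE; adjusted p = 1.49e-05). It rose from 1.01 ± 0.542 CPM (n = 4) in Clec7a-KO to 8.36 ± 1.96 CPM (n = 4) in SOD1G93A/Clec7a-KO (3.15 ± 0.36, adjusted p = 9.9e-06). Cdkn1c, which encodes p57, fell from 15.9 ± 0.273 to 3.99 ± 1.49 CPM in SOD1G93A (-2 ± 0.33, adjusted p = 3.88e-04) and from 17.2 ± 5.29 to 4.51 ± 1.58 CPM in SOD1G93A/Clec7a-KO (-1.95 ± 0.29, adjusted p = 8.9e-05). Btg2, an antiproliferative gene, fell in SOD1G93A/Clec7a-KO against Clec7a-KO (-0.93 ± 0.25, adjusted p = 0.0072) and did not pass in SOD1G93A against nTg (-0.57 ± 0.28, adjusted p = 0.138). From other groups of the list, the transcription factor E2f3 and the separase gene Espl1 fell by 0.48 each in SOD1G93A against nTg (adjusted p = 0.0175 and 0.0128).

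Oligodendrocyte precursors also had more cells with the mitosis call in most transgenic libraries. Of 3602 precursors, 144 carried the mitosis call (4%, interval 3.38% to 4.69%), and 264 the S phase call. The 144 cells had a median of 32.9 precursor marker UMIs per 10000, against 59.5 in the other precursors. Their median depth was 12364 UMIs against 7865 UMIs. With the mitosis call were 1.08%, 2.34% and 3.93% in nTg and 0.883%, 0.995%, 0% and 2.26% in Clec7a-KO. The shares were 5.98%, 6.5% and 10.3% in SOD1G93A and 5.84%, 2%, 6.12% and 9.72% in SOD1G93A/Clec7a-KO, where replicate 2 fell within the range of Clec7a-KO. The group means were 2.45% ± 1.43 (SD, n = 3), 1.03% ± 0.928 (n = 4), 7.61% ± 2.38 (n = 3) and 5.92% ± 3.16 (n = 4). Libraries held 72 to 485 thinned precursors, so a library's share rests on few called cells. With the marked doublets kept, nTg replicate 1 was at 4.25%, since 10 of its 13 called precursors were marked, and the nTg mean was 3.64%.

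In the sums over precursors, all 40 members were positive in both transgene comparisons, but the calls depended on the comparison and on single libraries. In SOD1G93A against nTg, edgeR called 0 of 40 (0.726% of all genes were called higher and 0.181% lower), 26 had an unadjusted p under 0.05, DESeq2 called 1, and the median log2 fold change was 1.42. The shares of all genes are at adjusted p. The share at an unadjusted p is not given, so no excess is read from such counts, in precursors or in any other class. Between SOD1G93A/Clec7a-KO and Clec7a-KO, 19 of 40 were called higher and 0 lower (2.73% of all genes were called higher and 0.945% lower), with a median of 2.12, and these were 14 of 17 S phase and 5 of 23 mitosis members. That split is of calls and not of sizes: Top2a rose more than Rrm1 but with a larger SE, and only Rrm1 was called (below). The difference between the phases was not tested. Leaving out 1 library moved the count of called members between 5 (without Clec7a-KO replicate 2) and 35 (without Clec7a-KO replicate 4). It was 11 without Clec7a-KO replicate 1, 8 without Clec7a-KO replicate 3, 8 without SOD1G93A/Clec7a-KO replicate 3 and 11 without SOD1G93A/Clec7a-KO replicate 4. With the marked doublets kept, an alternative added after seeing the data, 29 members were called here (7.07% of all genes higher and 3.46% lower) and 0 in SOD1G93A against nTg (3.12% and 0.755%), where the median was 0.81. None of the 10 named members called kept its call under all alternatives.

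Rrm1 stood at 41.4, 44.3 and 54.8 CPM in the precursors of nTg and 72.4, 59.7 and 76.6 CPM in SOD1G93A, and at 35.6, 45.1, 24.3 and 34.1 CPM in Clec7a-KO and 74.5, 43.5, 74.3 and 87.6 CPM in SOD1G93A/Clec7a-KO. The first pair of groups did not overlap (0.57 ± 0.22, adjusted p = 0.292), and in the second SOD1G93A/Clec7a-KO replicate 2 lay below Clec7a-KO replicate 2 (0.97 ± 0.21, adjusted p = 0.0181). Mcm5 stood at 18.3, 16.1 and 36.9 CPM in nTg and 55.2, 30.3 and 41.1 CPM in SOD1G93A, with an overlap (0.8 ± 0.34, adjusted p = 0.351). It stood at 9.87, 15, 8.1 and 27 CPM in Clec7a-KO and 40.1, 31.8, 49.8 and 49.3 CPM in SOD1G93A/Clec7a-KO, with none (1.54 ± 0.35, adjusted p = 0.0238).

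Cdk1 stood at 3.8, 26.3 and 29.3 CPM in the precursors of nTg and 45.8, 63.7 and 89.5 CPM in SOD1G93A, with no overlap (1.75 ± 0.6, adjusted p = 0.214). It stood at 3.84, 7.71, 0 and 22.5 CPM in Clec7a-KO and 46.8, 25.5, 49.8 and 98.6 CPM in SOD1G93A/Clec7a-KO, also with none (2.7 ± 0.65, adjusted p = 0.0315). Top2a stood at 15.2, 74.2 and 166 CPM in nTg and 186, 216 and 336 CPM in SOD1G93A, and at 14.5, 30.1, 0 and 84.3 CPM in Clec7a-KO and 179, 120.0, 132 and 268 CPM in SOD1G93A/Clec7a-KO. Its groups did not overlap, and neither test passed (1.52 ± 0.73, adjusted p = 0.415, and 2.45 ± 0.71, adjusted p = 0.0636). Clec7a-KO replicate 3 was at 0 for Cdk1 and Top2a, and its precursors held no cell with the mitosis call.

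**Figure D5:**
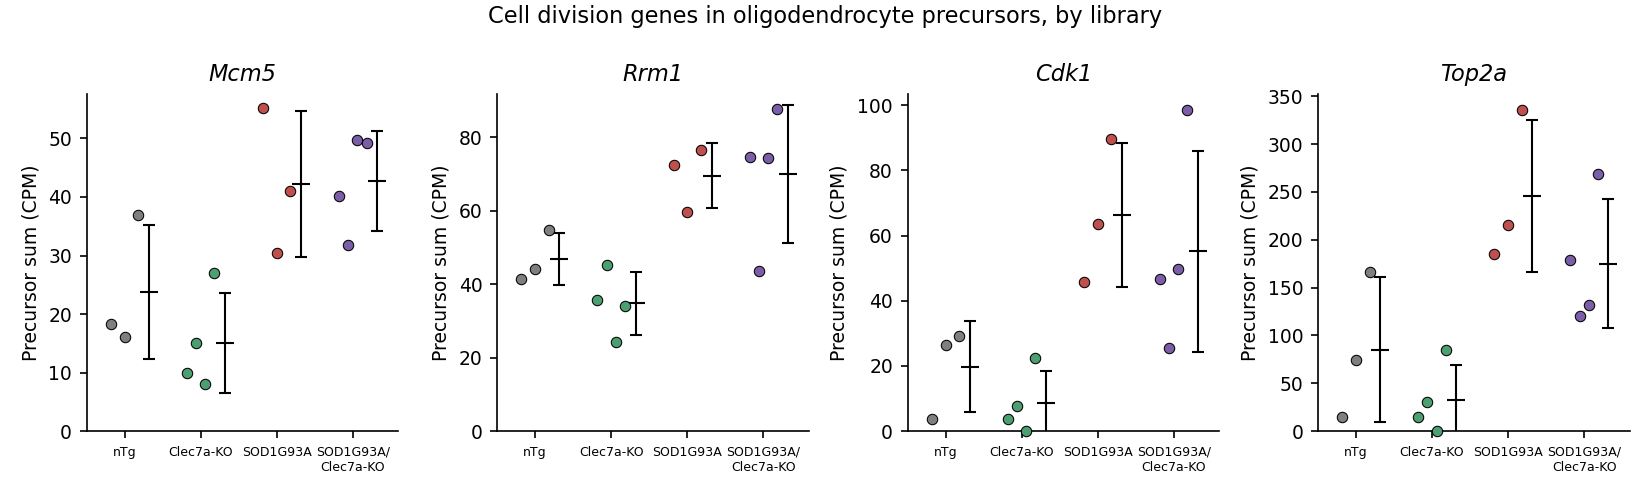
CPM in the sum over oligodendrocyte precursors of each library (points) for 4 members, with the group mean ± SD (SD bars are drawn only above 0). Cdk1 and Top2a do not overlap between groups with and without the transgene of the same Clec7a genotype, and 1 Clec7a-KO library is at 0 for both.

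Every library of SOD1G93A lay above every library of nTg for 23 of 40 members in precursors, where it held for 11% of all genes, and the same held in SOD1G93A/Clec7a-KO against Clec7a-KO for 21 of 40, where it held for 5.92%. No member was called with the loss of Clec7a here either. Between SOD1G93A/Clec7a-KO and SOD1G93A, edgeR called 0 of 40 (0.00756% of all genes higher and 0.0% lower), 0 had an unadjusted p under 0.05, DESeq2 called 0, and the median was -0.1. In Clec7a-KO against nTg, edgeR called 0 (0.00756% in each direction; DESeq2 0), although all 40 fitted values were negative, with a median of -0.76 (-1.33 with marked doublets kept) and 6 at an unadjusted p under 0.05. The interaction called 0 of 40 (0.0% of all genes; DESeq2 0), with all 40 positive, a median of 0.64 (1.17 with marked doublets kept) and 5 at an unadjusted p under 0.05.

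From the wider list, only 2 genes were called in the precursors of SOD1G93A against nTg, and no theme is read from them. Cdkn1c rose from 27.6 ± 6.05 CPM (SD, n = 3) to 69.6 ± 4.53 CPM (n = 3; 1.32 ± 0.22, SE; adjusted p = 0.00517), while it fell in microglia, and the p19 gene Cdkn2d rose from 56 ± 12 to 102 ± 1.35 CPM (0.88 ± 0.16, adjusted p = 0.0121). Of the 121 genes tested, these were 2 higher and 0 lower (0.726% of all genes were called higher and 0.181% lower), and the count was 0 without nTg replicate 1 and 1 to 5 without 1 of the other libraries. With SOD1G93A/Clec7a-KO set against Clec7a-KO, 30 of 121 were called higher and 0 lower, where 2.73% of all genes were called higher and 0.945% lower, among them E2f1 (2.74 ± 0.55, adjusted p = 0.0128) and the licensing inhibitor Gmnn (2.48 ± 0.5, adjusted p = 0.0125). Without 1 library the count higher ran from 10 (without Clec7a-KO replicate 2) to 61 (without Clec7a-KO replicate 4), and it was 18 without Clec7a-KO replicate 1, 14 without Clec7a-KO replicate 3 and 16 without SOD1G93A/Clec7a-KO replicate 3. With the marked doublets kept it was 54, where 7.07% of all genes were called higher and 3.46% lower. The difference of Cdkn1c between cell classes was not tested. Microglial markers were low in the precursor sums, where the 12 markers together came to 102 to 769.6 CPM without and 447 to 2101 CPM with the transgene, against 26911 to 53002 CPM in microglia.

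T cells with the mitosis call were few. Of them, 4 came from SOD1G93A and 14 from SOD1G93A/Clec7a-KO. These groups also held most of the T cells, so the counts alone show no excess. Of 472 thinned T cells, 20 carried the call (4.24%, interval 2.61% to 6.47%). The shares were 4.65%, 3.39% and 0% in SOD1G93A (147 cells) and 6.15%, 5.5%, 5.41% and 10.0% in SOD1G93A/Clec7a-KO (231 cells). In the libraries with at least 10 cells, it was 0 of 24 T cells in nTg and 0 of 49 in Clec7a-KO, which allows shares of up to 12.5% and 6.12%, while the other called cells were 1 of 6 in nTg replicate 3 and 1 of 8 in Clec7a-KO replicate 4. Of the 20 called cells, 8 carried at least 50 microglial marker UMIs per 10000 (129.9 to 378), so their class is uncertain.

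Only SOD1G93A/Clec7a-KO against SOD1G93A could be tested in T cells. Of 10 members tested, edgeR called 0 and 0 had an unadjusted p under 0.05 (0.0% of all genes higher and 0.0238% lower; DESeq2 0). Mki67 stood at 100.1, 144 and 36.7 CPM in SOD1G93A and 123, 101, 45.9 and 128 CPM in SOD1G93A/Clec7a-KO, which overlapped.

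Astrocytes without the transgene had almost no cell with the mitosis call. It was carried by 0 of 1671 cells in nTg, which allows a share of up to 0.18%, and by 1 of 1889 in Clec7a-KO. In SOD1G93A it was carried by 1.4%, 2.3% and 4.17%, and in SOD1G93A/Clec7a-KO by 0.831%, 2.89%, 0% and 0%, the last from 25 cells. Of the 27 called cells, 26 lay in cluster 22, led by S100a6, A2m, Gfap and Myoc, which held 8.55% ± 2.93 (SD, n = 3) of the astrocytes in nTg and 9.86% ± 2.27 (n = 4) in Clec7a-KO, against 54.4% ± 3.3 (n = 3) in SOD1G93A and 54.2% ± 11 (n = 4) in SOD1G93A/Clec7a-KO.

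In astrocytes 28 members passed the filter and the other 12 were too low to be tested. A member that passed through its level in the transgenic groups had to differ, so the counts that follow are a description and support nothing. In SOD1G93A against nTg, 25 were called higher and 0 lower (19.4% of all genes were called higher and 16.9% lower). Against Clec7a-KO, SOD1G93A/Clec7a-KO had 17 called higher and 0 lower (18.1% and 15.6% of all genes), and 26 of 30 tested with the marked doublets kept (16.3% and 14.6% of all genes). Cdk1 stood at 0.283, 0.299 and 0 CPM in nTg and 11.1, 14.8 and 47.4 CPM in SOD1G93A, with no overlap. It stood at 1.3, 0.501, 0 and 0 CPM in Clec7a-KO and 16.8, 26.1, 0 and 6.3 CPM in SOD1G93A/Clec7a-KO, where replicate 3 overlapped. No fold is given against groups this near 0.

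Microglial markers moved with the transgene in the astrocyte sums: the 12 markers together came to 224 to 562 CPM in nTg, 584 to 2717 CPM in Clec7a-KO, 2051 to 17468 CPM in SOD1G93A and 5429 to 15524 CPM in SOD1G93A/Clec7a-KO, with C1qa and P2ry12 above 0 on average in every group. Without the cells that carried at least 50 microglial marker UMIs per 10000, 21 of 23 members tested were called in SOD1G93A against nTg (17.3% of all genes higher and 16.2% lower) and 14 of 23 in SOD1G93A/Clec7a-KO against Clec7a-KO (14.8% and 13.4%). The called astrocytes had a median of 47 astrocyte marker UMIs per 10000 against 193 in the others, a median of 7.93 ependymal marker UMIs against 0, and 4 of 27 carried the microglial markers. No member was called in the Clec7a comparisons or the interaction. With edgeR and with DESeq2, SOD1G93A/Clec7a-KO against SOD1G93A gave 0 called (0.0% of all genes higher and 0.00765% lower) with 4 at an unadjusted p under 0.05, Clec7a-KO against nTg 0 (0.0% in each direction) with 0, and the interaction 0 (0.0% in each direction) with 2.

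Ependymal cells had few cells with the mitosis call (21 of 7383, 0.284%, interval 0.176% to 0.434%), but in the sums some mitosis genes were called higher in SOD1G93A/Clec7a-KO than in Clec7a-KO. The mean share after thinning was 0.242% in nTg, 0.0391% in Clec7a-KO, 0.079% in SOD1G93A and 0.597% in SOD1G93A/Clec7a-KO. Without thinning the order of these groups turned, with 13%, 12.1%, 8.65% and 6.15%, and the share was between 3.57% and 17.7% in every library, so the call in these cells depends on depth and no order of the groups is read from it. Against Clec7a-KO, 11 of 33 members tested were called higher and 0 lower (1.31% of all genes were called higher and 0.183% lower). A member that passed the filter through its level in 1 group had to differ, so these counts too are a description. All of those called were mitosis genes, and 7 were called without the cells that carried microglial markers (0.85% of all genes higher and 0.0988% lower). The count was also 7 without SOD1G93A/Clec7a-KO replicate 2 and 7 without replicate 3, and it was 22 of 36 with the marked doublets kept (7.12% of all genes higher and 2.5% lower). Cdc20 stood at 1.88, 2.48, 3.25 and 2.28 CPM in Clec7a-KO and 10.5, 7.86, 12.6 and 3.76 CPM in SOD1G93A/Clec7a-KO, with no overlap (1.96 ± 0.27, adjusted p = 5.93e-04). It was also the only member called against SOD1G93A (2.66, 2.48 and 2.9 CPM; 1.88 ± 0.32, adjusted p = 0.0465; 0.013% of all genes were called higher and 0.0261% lower). That call was lost with the marked doublets kept, without the cells that carried microglial markers, and in 12 of 14 fits that left out 1 library.

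Mki67 in ependymal cells stood at 0.469, 0.656, 0.738 and 0.152 CPM in Clec7a-KO and 11.7, 8.44, 11.3 and 0 CPM in SOD1G93A/Clec7a-KO, where replicate 4 held 27 thinned ependymal cells. No fold is given for Mki67, since it was near 0 in every Clec7a-KO library. It stood at 1.98, 0.659 and 8.72 CPM in nTg and 0, 1.72 and 6.48 CPM in SOD1G93A, so the highest library without the transgene lay within the range of SOD1G93A/Clec7a-KO. In SOD1G93A against nTg, edgeR and DESeq2 called 0 of 33 and 0 had an unadjusted p under 0.05 (1.06% of all genes were called higher and 0.0652% lower). In Clec7a-KO against nTg, both called 0 of 33 and 9 had an unadjusted p under 0.05 (0.0% of all genes higher and 0.0261% lower). The interaction called 0 of 33 with both (0.0% of all genes higher and 0.00652% lower), with 13 of 19 mitosis members at an unadjusted p under 0.05, so a difference between both transgene effects did not pass. Microglial markers together came to 111 to 806 CPM in the ependymal sums without and 451 to 2524 CPM with the transgene, and their part in the ependymal values was not tested beyond leaving out marker-carrying cells.

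In the remaining classes no member was called by edgeR or DESeq2. Endothelial cells carried the mitosis call in 5 of 10889 cells, with 0 of 19 members called in any comparison. The shares of all genes called in these fits were 1.08% higher and 0.0301% lower in SOD1G93A against nTg, 0.956% higher and 0.0377% lower in SOD1G93A/Clec7a-KO against Clec7a-KO, 0.0% higher and 0.00753% lower in SOD1G93A/Clec7a-KO against SOD1G93A, 0.0% higher and 0.0% lower in Clec7a-KO against nTg and 0.0% higher and 0.00753% lower in the interaction. In the same order, 0, 3, 0, 0 and 1 members had an unadjusted p under 0.05. With the marked doublets kept, 35 members could be tested in endothelial cells, and 2 were called in SOD1G93A against nTg (4.03% of all genes higher and 0.107% lower) and 7 in SOD1G93A/Clec7a-KO against Clec7a-KO (4.16% and 0.398%). Mural cells carried the call in 1 of 1315 cells, NK cells in 1 of 93 and fibroblasts in 0 of 88. In mural cells, 4 members could be tested and 0 were called, where 0.133% higher and 0.0% lower of all genes were called in SOD1G93A against nTg, 0.904% higher and 0.0266% lower in SOD1G93A/Clec7a-KO against Clec7a-KO, 0.0133% higher and 0.0% lower in SOD1G93A/Clec7a-KO against SOD1G93A, and 0.0% in each direction in the other 2 tests. In neurons, also 4 members could be tested and 0 were called, where 0.58% higher and 0.0% lower were called in SOD1G93A against nTg, 0.323% higher and 0.0% lower in SOD1G93A/Clec7a-KO against Clec7a-KO and 0.0% in the others. At most 1 of these members per comparison had an unadjusted p under 0.05.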

How the data were processed

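The 40 members and all gene lists were chosen with earlier results of these data known. The deposited files hold UMI counts per gene and barcode for 14 single-cell libraries, made by the authors with Cell Ranger 3.0.2, per the file headers, on mm10, per the submitters' processing notes; the annotation is not given in the sources used here. Barcodes under 500 genes or 1000 UMIs, or above 15% mitochondrial UMIs, were dropped, and doublets were removed with Scrublet in scanpy 1.11.5 at 0.8% per 1000 cells, which took all microglia of nTg replicate 1 with the mitosis call in thinned counts.

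Cells of all libraries were clustered (2000 variable genes without any cell division gene of either list, 30 components, 15 neighbours, Leiden resolution 1.0) into 27 clusters, of which 24 were named from markers. At most 33 barcodes were shared by any pair of libraries (0.456%). For each class, counts were added up within a library, and these sums were tested with edgeR 4.0.16 in R 4.3.3 (TMM, filterByExpr, all groups in 1 fit, Benjamini-Hochberg adjustment). A library entered with at least 10 cells of the class, and a comparison needed 3 libraries per group.

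Members given for every library were the 3 with the highest microglial mean of each role group; in the other classes and lists, examples were chosen from the same members and by size of change, and the members shown for astrocytes, ependymal cells and T cells were chosen after their values were seen. Alternatives were DESeq2 1.42.0, other filters, scaling, covariates, clustering and depth, leaving out each library, and, chosen after seeing the data, leaving out microglial clusters 6 and 10. The test scripts were checked on simulated data. UMIs total 28819852 to 141204910 per library. Intervals and limits at 0 (3 counts) cover counting error only.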

Additional observations from a re-analysis of the deposited data

Results flagged for a closer look

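Within groups of 4 libraries, 88 sets of member levels were examined for 1 library far from the other 3, and in 7 the gap to the nearest library, as a part of the whole range, exceeded Dixon's 95% value. Chance alone gives about 1 in 20 such sets. In the microglia of Clec7a-KO, replicate 4 stood apart as the highest library for Mcm3 (42.2 CPM), Mcm5 (9.03 CPM), Tyms (10.6 CPM) and Ccna2 (6.6 CPM). In the microglia of SOD1G93A/Clec7a-KO, replicate 3 was the highest for Nusap1 (10.4 CPM). In oligodendrocyte precursors, replicate 4 was the highest of SOD1G93A/Clec7a-KO for Aurkb (36.5 CPM) and replicate 4 the highest of Clec7a-KO for Ube2c (75.3 CPM).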

How the results depend on the processing

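No called change reversed its direction under any alternative tried, but shares of cells that were not tested did: without thinning, the ependymal share was 6.15% in SOD1G93A/Clec7a-KO against 12.1% in Clec7a-KO (0.597% against 0.0391% thinned), and the endothelial share 0.846% in SOD1G93A against 1.08% in nTg (0.14% against 0% thinned). With no filter on low counts, called members moved to 27 in astrocytes, 18 in ependymal cells, 5 in mural cells and 40 in precursors for SOD1G93A/Clec7a-KO against Clec7a-KO, to 30 in precursors for SOD1G93A against nTg, and to 192 over all classes other than microglia. Of all genes under this setting, 9.31%, 1.62%, 0.769% and 2.44% were called higher and 7.93%, 0.705%, 0.209% and 1.24% lower in these 4 classes, and 1.76% higher and 0.84% lower in precursors of SOD1G93A against nTg. The same setting gave 2 in astrocytes, 9 in ependymal cells, 1 in mural cells and 1 in precursors for SOD1G93A/Clec7a-KO against SOD1G93A, 3 and 8 in ependymal cells and precursors for Clec7a-KO against nTg, 2, 8 and 2 for the interaction in astrocytes, ependymal cells and precursors, and 1 in endothelial cells for SOD1G93A against nTg. Of all genes, 0.146%, 0.307%, 0.394% and 0.344% were called higher and 0.124%, 0.183%, 0.127% and 0.137% lower in the 4 classes against SOD1G93A. For Clec7a-KO against nTg it was 0.16% and 0.0814% higher and 0.186% and 0.192% lower. For the interaction it was 0.033%, 0.13% and 0.0925% higher and 0.487%, 0.0979% and 0.0407% lower. In endothelial cells it was 1.02% higher and 0.334% lower. Directions of these members are not given. DESeq2 gave 2 in ependymal cells for SOD1G93A/Clec7a-KO against SOD1G93A and 1 in precursors for SOD1G93A against nTg. Of all genes, DESeq2 called 0.0326% and 1.45% higher and 0.0261% and 0.453% lower in these fits. Without cells carrying microglial markers, an alternative added after seeing the data, ependymal counts were 0 against SOD1G93A and 7 against Clec7a-KO. With marked doublets kept, added likewise, called members were 26 in astrocytes, 22 in ependymal cells, 7 in endothelial cells and 29 in precursors for SOD1G93A/Clec7a-KO against Clec7a-KO, 2 in ependymal and 2 in endothelial cells for SOD1G93A against nTg, and 0 in ependymal cells against SOD1G93A. In ependymal cells, 4.04% of all genes were then called higher and 0.284% lower for SOD1G93A against nTg. Only 5 of these classes were refitted under the added alternatives, so no total over classes is given for them. The cause of these shifts was not tested.

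Leaving out 1 library at a time gave 15 to 37 called members in microglia for SOD1G93A against nTg and 22 to 37 for SOD1G93A/Clec7a-KO against Clec7a-KO, 12 to 23 in astrocytes and 7 to 12 in ependymal cells for the latter comparison, and 0 to 1 in ependymal cells against SOD1G93A. In precursors it gave 0 to 3 for SOD1G93A against nTg and 5 to 35 for SOD1G93A/Clec7a-KO against Clec7a-KO.

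The mitosis share of microglia without thinning was 0.819% in Clec7a-KO, 6.11% in SOD1G93A, 4.73% in SOD1G93A/Clec7a-KO and 3.92% in all. Thinned to 1000 UMIs it was 0.503% in Clec7a-KO, 2.09% in SOD1G93A/Clec7a-KO and 1.64% in all. With the call at 2 members it was 3.16% in SOD1G93A, 3.23% in SOD1G93A/Clec7a-KO and 2.49% in all, and at 5 members 1.99%, 2.05% and 1.59%. In precursors the share without thinning was 3.89% in nTg and 10.9% in SOD1G93A.

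The replicate block gave 34 called members in microglia for SOD1G93A against nTg and 34 for SOD1G93A/Clec7a-KO against Clec7a-KO. Of all genes, 21.9% and 28.2% were called higher with the block and 15.9% and 23.8% lower. With the block, Ccna2, Ube2c, Cdc20, Nusap1, Kif11 and Mki67 passed in the first comparison and Nusap1, Kif11, Mki67 and Top2a in the second, which they did not without it. Replicate numbers were not taken to pair the libraries, since not every pair correlated above 0.1: over 19 pairs of libraries with the same number, deviations from the group means correlated from -0.267 to 0.539 (median 0.118, 11 above 0.1, against a median of -0.064 over 54 other pairs), and 6 of 14 libraries correlated best with their own number. The other pairs ran from -0.628 (Clec7a-KO replicate 4 with SOD1G93A/Clec7a-KO replicate 1) to 0.6045 (Clec7a-KO replicate 4 with SOD1G93A/Clec7a-KO replicate 3). Libraries also carry a library number, and those of SOD1G93A all lie below those of nTg. With it as a covariate, Ccna2, Ube2c, Nusap1 and Kif11 also passed in the first comparison. Cdc20, Nusap1, Kif11, Mki67 and Top2a also passed in the second. Of all genes, 25% and 30.3% were then called higher and 19.3% and 27.2% lower. What the library number stands for was not tested. Depth limits the calls per cell and the tests in small classes.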
